A study of Homo sapiens with 28 samples.

Results

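Antisense promoter peaks are N6-methyladenosine (m6A) peaks on RNA that runs away from a gene: the summit lies between 1000 bases upstream and 100 bases downstream of an annotated transcript start on the other strand, and in no such window of a start on its own strand. In 14 peak lists, 24871 of 495694 peaks on chromosomes 1 to 22 and X (hg38) met this rule, which used positions and strands only. They merged into 4936 regions beside the starts of 4090 genes, 3159 regions at protein-coding genes and 1280 at long noncoding RNA (lncRNA) genes.

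The lists came from methylated RNA immunoprecipitation sequencing (MeRIP-seq) of chromatin-associated RNA (caRNA), in which fragmented RNA is pulled down with an m6A antibody. HepG2 (hepatoma), K562 (myelogenous leukaemia) and NB4 (acute promyelocytic leukaemia) cells were compared in 6 groups: 2 libraries each of HepG2 WT, K562 WT, K562 Control and K562 RBFOX2 KD cells, and 3 libraries each of NB4 Control and NB4 RBFOX2 KD cells. The WT groups are unmodified cells, whereas the Control and KD cells carried a lentiviral short hairpin RNA under puromycin selection, non-targeting in Control and against RBFOX2, an RNA-binding protein, in KD. The study's methods call the replicates biological, while the labels do not say whether libraries of a group came from separate cultures. The p-values therefore measure the spread between these libraries, which may be in part technical. A peak list holds no RNA level, so the depletion of RBFOX2 could not be checked, and RNA that was absent cannot be told apart from RNA that was present without m6A. In bulk libraries, likewise, fewer cells making an RNA and less of it per cell cannot be told apart.

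Most mammalian promoters are transcribed in both directions. The RNA made away from the gene, called upstream antisense RNA or promoter upstream transcript, usually ends early at polyadenylation signals and is degraded by the nuclear exosome, which adaptor complexes bring to capped RNA. Short-lived RNA of this kind is held on chromatin, so the chromatin fraction is where it is readily seen. m6A is written by the METTL3 and METTL14 complex, mostly in the context DRACH (A, G or U, then A or G, then A and C, then A, C or U), of which GGACU is the best known form. RBFOX2 binds UGCAUG in splicing, and the study links AGAUG to the m6A sites it recognises.

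The sequences below show what such summits look like: 1 region found in all 14 libraries, regions found in every library of 1 line and in no other library, and regions that changed with KD. Each holds the strongest summit and 50 bases to either side of it in hg38, 5′ to 3′ on the strand of the peak, with DRACH pentamers in capitals.
ENSG00000289319, all 14 libraries, chr12:65170097-65170197, plus strand, exon 1 of LEMD3: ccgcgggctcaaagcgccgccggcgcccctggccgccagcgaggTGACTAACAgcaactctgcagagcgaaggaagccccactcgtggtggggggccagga
PDGFRB, HepG2 only, chr5:150137821-150137921, plus strand, no transcript on this strand: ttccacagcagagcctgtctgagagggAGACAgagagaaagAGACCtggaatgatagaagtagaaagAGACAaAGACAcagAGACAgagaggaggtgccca
ENSG00000251199, K562 only, chr4:134328357-134328457, plus strand, exon 1 of PES1P1: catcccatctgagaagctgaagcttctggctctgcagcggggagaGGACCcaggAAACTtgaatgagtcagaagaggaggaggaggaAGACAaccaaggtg
ENSG00000222012, NB4 only, chr7:157613317-157613417, minus strand, intron 15 of PTPRN2: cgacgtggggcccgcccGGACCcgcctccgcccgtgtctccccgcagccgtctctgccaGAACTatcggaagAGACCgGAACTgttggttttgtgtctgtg
H2AC8, K562 only, chr6:26215934-26216034, minus strand, no transcript on this strand: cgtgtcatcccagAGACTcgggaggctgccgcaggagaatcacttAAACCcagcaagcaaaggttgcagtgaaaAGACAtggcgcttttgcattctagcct
SAFB, lost on KD in K562, chr19:5622605-5622705, minus strand, exon 1 of SAFB2: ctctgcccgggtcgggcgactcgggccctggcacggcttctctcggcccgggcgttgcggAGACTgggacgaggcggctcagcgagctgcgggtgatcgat
ZNF614, lost on KD in K562, chr19:52028585-52028685, plus strand, no transcript on this strand: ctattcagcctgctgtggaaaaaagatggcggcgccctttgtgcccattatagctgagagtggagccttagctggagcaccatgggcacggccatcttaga
IRS1, gained on KD in NB4, chr2:226796115-226796215, plus strand, no transcript on this strand: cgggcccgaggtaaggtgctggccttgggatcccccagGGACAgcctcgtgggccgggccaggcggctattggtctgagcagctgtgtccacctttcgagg
The windows hold between 0 (ZNF614) and 5 (PDGFRB) DRACH pentamers and none holds GGACU. As a background, 79.2% of 19970 windows of the same length, centred 367 bases upstream of the canonical protein-coding starts on the opposite strand, hold DRACH, and 9.75% hold GGACU.

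Antisense summits formed a separate hump upstream of genes. Around canonical protein-coding starts, opposite-strand summits were densest 300 to 400 bases upstream, with a mean of 3.98 per 1000 peaks of a library in that 100-base bin (range 3.27 to 5.10). In the bin 2900 to 3000 bases upstream the mean was 0.833. Summits on the strand of the gene were densest 100 to 200 bases downstream, at 21.6 per 1000 (14.4 to 32.7). Among the members, the median distance upstream of the nearest start was 348 to 383 bases over libraries, and 10.2% to 12.9% of the members of a library lay at or downstream of the start.

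**Figure D1:**
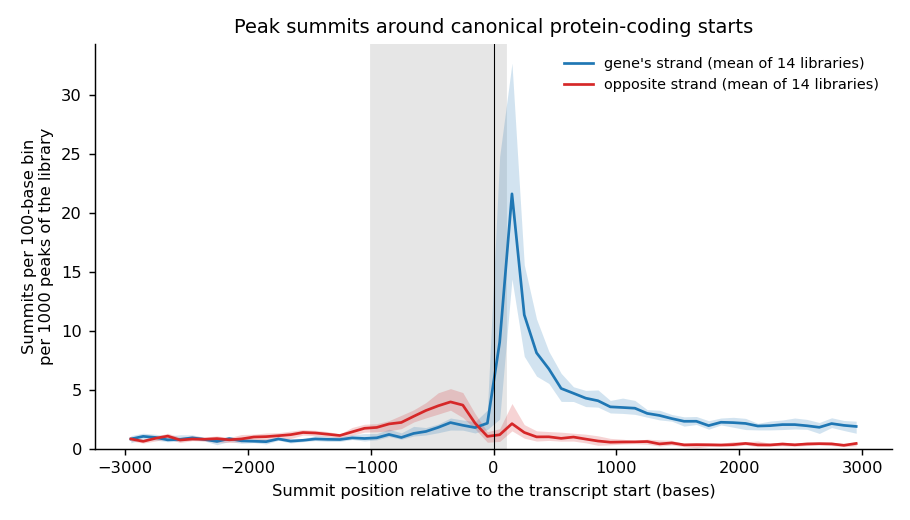
Peak summits per 100-base bin (y axis, per 1000 peaks of the library) against position relative to canonical protein-coding starts (x axis, bases; grey, the window of the rule). Lines are means of 14 libraries and bands the range: opposite-strand summits (red) reached 3.98 per 1000 between 400 and 300 bases upstream, and summits on the strand of the gene (blue) 21.6 per 1000 between 100 and 200 bases downstream.

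The name upstream antisense RNA fits only part of these peaks. Of the 24871 members, 46.8% had their summit in an annotated exon on their own strand (44.9% to 49.4% over libraries). None of these lies in the promoter window of a start on its own strand, by the rule. A further 21.3% lay in a same-strand intron, and 31.9% lay in no annotated transcript of that strand (30.1% to 33.1%). Of this last group, 30.0% had the end of a same-strand transcript within 5000 bases upstream. The rule takes the start of any annotated transcript, and many of these are not the canonical start of their gene. A canonical opposite-strand start had its window over 61.4% of all members and 42.3% of the unannotated ones. Only 1523 peaks, 6.12% of the members, passed a stricter rule. They lay outside same-strand transcripts, over 5000 bases past any same-strand transcript end and in the window of a canonical opposite-strand start of any gene type. They also lay upstream of their nearest opposite start, which belonged to a protein-coding gene. The canonical start and the nearest start need not be the same. These 1523 peaks are the closest to the textbook picture, and they numbered 82 to 201 per library. The members are therefore called antisense promoter peaks here, and the exonic, intronic and unannotated ones are given apart.

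The unannotated peaks differed from the exonic ones in position, host and strength. Their median distance upstream was 256 to 308 bases over libraries, against 380 to 430 for the exonic peaks. The nearest opposite start belonged to a protein-coding gene for a median of 79.9% of unannotated peaks and 55.3% of exonic ones, and to a lncRNA gene for 11.1% and 36.5%. Of the exonic peaks, a median of 28.1% per library lay in coding sequence.

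Some antisense summits lay under a peak on the other strand of the same library. Over libraries this was so for 4.34% to 13.1% of antisense summits and 1.51% to 5.80% of sense promoter summits (mean difference 5.33 points ± 1.61 SD, higher in 14 of 14 libraries, p = 0.000122, adjusted p = 0.000352, exact sign-flip permutation test over libraries, 26 measures). The share was 10.4% to 28.8% among unannotated antisense peaks and 1.34% to 5.41% among exonic antisense peaks. In 79.7% of the 2276 cases the opposite peak had the higher rank. The part of imperfect strand separation in these peaks was not tested.

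Antisense promoter peaks were weaker than sense promoter peaks, those on the strand of an annotated start. Strength was taken as the percentile of a peak's -log10 q-value among all peaks of its library. The median percentile of antisense peaks was 43.3 to 49.1 over libraries and that of sense promoter peaks 52.4 to 56.5. The difference averaged -8.10 ± 1.99 points (SD, n = 14) and was below 0 in 14 of 14 libraries (p = 0.000122, adjusted p = 0.000352, the smallest raw p that 16384 sign flips allow). Libraries of 1 line share their cells, so these are not 14 separate experiments. Median fold at the summit did not pass the test (-0.199 ± 0.448, adjusted p = 0.162, exact sign-flip test).

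The exonic, intronic and unannotated antisense peaks differed in strength. Exonic antisense peaks had a median percentile of 49.4 to 56.6, and their difference from sense promoter peaks was -0.214 ± 2.05 points (p = 0.706, exact sign-flip test). Intronic ones were at 40.0 to 44.2 and unannotated ones at 35.4 to 46.8. Unannotated peaks ranked below exonic antisense peaks in 14 of 14 libraries, by 14.5 points on average (a mean difference of -14.5 ± 2.84, p = 0.000122, adjusted p = 0.000183 over 3 exact sign-flip tests).

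**Figure D2:**
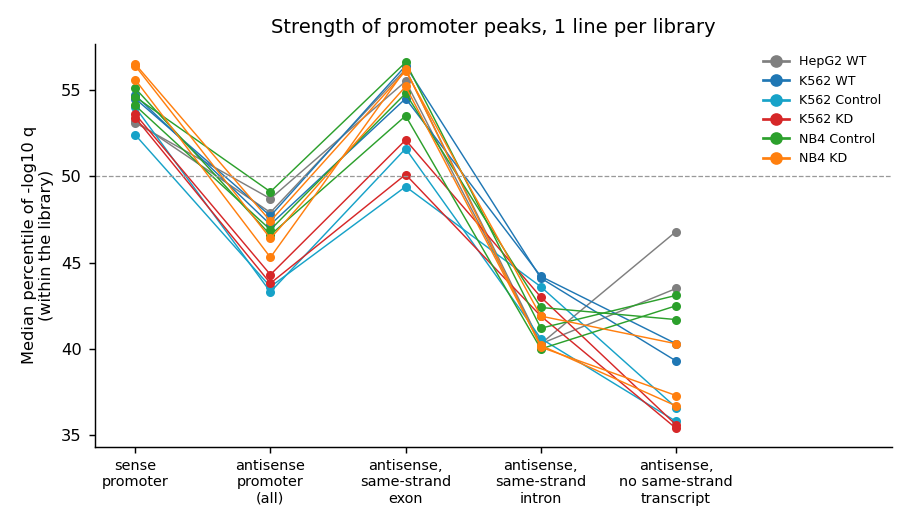
Median percentile of -log10 q within the library (y axis) for sense promoter peaks, all antisense promoter peaks and the antisense peaks split by same-strand annotation (x axis), 1 line per library, coloured by group. Exonic antisense peaks lie between 49.4 and 56.6, unannotated ones between 35.4 and 46.8.

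The m6A consensus was enriched at antisense summits about as much as at sense ones. Reading 75 bases to either side of a summit in the peak's own orientation, 23.9% to 27.5% of antisense windows held GGACU, against 12.5% to 14.5% of windows 300 bases to either side. The excess was 9.97 to 14.7 points and above 0 in 14 of 14 libraries. At sense promoter summits it was 8.51 to 16.0 points, and the difference between the classes was 0.381 ± 1.04 points (adjusted p = 0.227, exact sign-flip test over 14 libraries). Of 19970 151-base windows at all canonical protein-coding promoters, placed as above, 14.1% held GGACU. Antisense windows were also slightly richer in G and C, with a median of 55.6% to 60.9% (1.04 ± 0.810 points above sense windows, adjusted p = 0.00181, exact sign-flip test).

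Split by annotation, the GGACU excess was 11.1 to 17.1 points at exonic, 8.74 to 15.7 at intronic and 4.70 to 12.4 at unannotated antisense summits. In the 1523 peaks of the strict kind it ranged from 15.4 to 27.8 points. Per base, central adenosines of GGACU reached a mean of 2.42 per 1000 bases within 20 bases of antisense summits and 1.01 at 200 to 300 bases from them. DRACH in any form was in 92.1% to 96.6% of antisense summit windows and in 89.7% of the 151-base promoter windows.

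**Figure D3:**
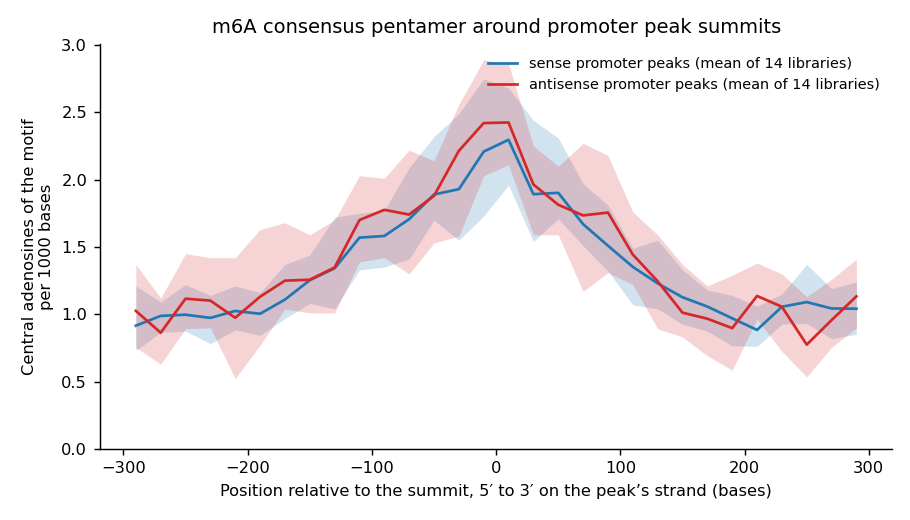
Central adenosines of the m6A consensus pentamer per 1000 bases (y axis) by distance from the summit in the peak's own orientation (x axis, bases), for antisense (red) and sense (blue) promoter peaks. Lines are means of 14 libraries and bands the range: within 20 bases of the summit the means are 2.42 (antisense) and 2.25 (sense), against 1.01 and 1.00 at 200 to 300 bases.

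The motifs tied to RBFOX2 were not richer at antisense than at sense summits. AGAUG was in 15.9% to 21.5% of antisense windows and 18.7% to 21.8% of sense windows, and its excess over the flanks was 1.34 to 6.42 and 2.49 to 5.94 points. The excess was lower at antisense summits by a mean of 0.843 points (-0.843 ± 0.803, adjusted p = 0.00296, exact sign-flip test). UGCAUG was in 2.01% to 3.02% of antisense windows and its excess over the flanks lay between -1.20 and 0.117 points. The polyadenylation signal AAUAAA was in 2.14% to 5.05% of antisense windows, below the flanks in 14 of 14 libraries (excess -2.53 to -0.175 points). It was below sense windows by a mean of 0.478 points (-0.478 ± 0.287, adjusted p = 0.000352, exact sign-flip test). The 5′ splice site form GGUAAG was in 1.78% to 2.64% of antisense windows, and 1.35% to 2.40% of their flanks held it against 2.83% to 3.21% of sense flanks (-1.08 ± 0.287 points, adjusted p = 0.000352, exact sign-flip test). The shares of all 151-base promoter windows were 14% for AGAUG, 2.69% for UGCAUG, 6.46% for AAUAAA and 1.96% for GGUAAG.

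Genes with an antisense peak often carried a sense promoter peak too. Among protein-coding genes with an antisense peak in a library, 32.9% to 45.5% had a sense promoter peak in the same library, against 10.5% to 19.9% of all 19962 protein-coding genes. For genes whose antisense peak was unannotated the share was 44.2% to 54.2%, and for exonic ones 25.6% to 42.0%. The set of all genes includes any that are silent in a line, and these can carry no peak. A peak list holds no RNA level, so a comparison with transcribed genes alone was not tested. Of unannotated antisense summits, 10.4% to 28.8% lay under a peak on the other strand, against 1.34% to 5.41% of exonic ones. The part of this overlap in the shares was not tested.

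Antisense regions ranged from those in all libraries to those in 1. With a peak of any class on the same strand counted as presence, 488 of the 4936 regions (9.89%) were present in all 14 libraries and 856 (17.3%) in 1 library. Of all 86263 regions of the 14 lists, 8.92% were in all 14 libraries and 21.9% in 1 library. In all, 2688 antisense regions (54.5%) were detected in 1 line, 1202 (24.4%) in 2 lines and 1046 (21.2%) in all 3, against 62.9%, 20.3% and 16.7% of all regions. A region of 1 library can only be in 1 line, and without those 1832 of 4080 antisense regions (44.9%) were in 1 line, against 52.5% of all regions. Of the 488 constant regions, 351 had their strongest summit in a same-strand exon, 59 in an intron and 78 in no transcript. The numbers of regions in every library of 1 line and in no other library were 214 for HepG2 (4.34%, against 4.60% of all regions), 289 for K562 (5.85%, against 6.33%) and 151 for NB4 (3.06%, against 3.38%). A further 126 (2.55%, against 2.13%) were in every K562 and NB4 library and in no HepG2 library.

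Antisense regions of K562 WT were found in the other lines less often than sense promoter regions. A difference from regions outside promoters was not shown. Of 2154 antisense regions present in both K562 WT libraries, 34.0% to 47.1% had a same-strand peak in each of the 8 HepG2 and NB4 libraries. Of 5897 sense regions, 38.9% to 60% did. The difference was -10.1 ± 3.12 points and below 0 in 8 of 8 libraries (p = 0.00781, the smallest 8 libraries allow, adjusted p = 0.0125 over 8 exact sign-flip tests). Of 29828 regions in neither promoter class, 36.7% to 49.9% did, and the difference of antisense from these was -0.604 ± 3.05 points (below 0 in 5 of 8 libraries, p = 0.633, exact sign-flip test). That mean covers both directions. In NB4 Control 43.1%, 45.9% and 44.2% of antisense regions were found, against 39.1%, 42.5% and 44.2%. In NB4 KD it was 47.1%, 44.8% and 44.2% against 49.9%, 47.8% and 48.2%, and in HepG2 WT 34.0% and 41.4% against 36.7% and 41.1%. Counted over all 14 lists, 21.2% of antisense regions were in all 3 lines, against 16.3% of regions in neither class. Among the strongest regions (percentile of 67 and above) the difference of antisense from sense regions was -10.2 ± 2.08 (adjusted p = 0.0125, exact test). Among the weakest (below 33) it was -2.35 ± 2.93 (adjusted p = 0.0781, exact test).

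Within the antisense regions, sharing depended on annotation. The 972 exonic regions were found in 43.3% to 58.6% of cases and the 715 unannotated ones in 25.5% to 33.7% (difference -22.8 ± 2.91 points, 8 of 8 libraries, adjusted p = 0.0125, exact test). Among the strongest the gap was -31.8 ± 1.41 points. Of the 8 libraries, 6 are NB4 and 2 HepG2, and all are set against the same K562 reference.

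**Figure D4:**
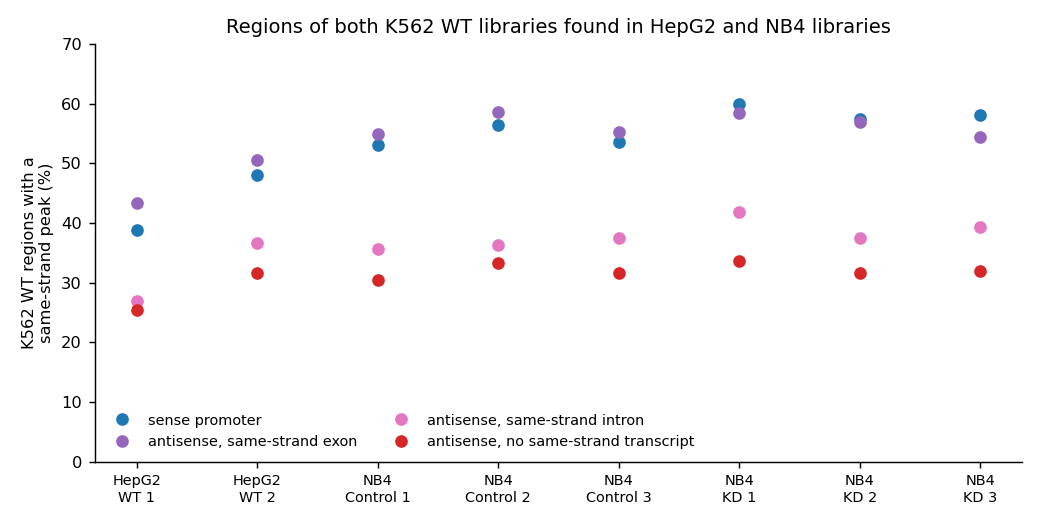
Percent of regions present in both K562 WT libraries that had a same-strand peak in each HepG2 and NB4 library (y axis), for sense promoter regions and for antisense regions split by same-strand annotation. Unannotated antisense regions (red) lie between 25.5% and 33.7%, and exonic ones (purple) between 43.3% and 58.6%.

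The strongest antisense regions present in all 14 libraries were at SRGAP2B, ENSG00000289318, MRPL43, INTS11, PCNT and ENSG00000289319, with mean percentiles of 99.7, 99.7, 99.5, 98.9, 98.6 and 98.6. All but INTS11 lay in exon 1 of a divergent protein-coding gene. For MRPL43, a mitochondrial ribosomal protein gene, the partner was TWNK, the mitochondrial DNA helicase (chr10:100986657-100989933, plus strand). At PCNT, a centrosome scaffold gene, it was C21orf58 (chr21:46322248-46324451, minus strand), and for the lncRNA gene ENSG00000289319 it was LEMD3, an inner nuclear membrane protein gene (chr12:65169540-65171277, plus strand). SRGAP2B and ENSG00000289318 faced FAM72D and FAM72C, copies of 1 gene family. Windows of the same length at their summits shared a run of 84 bases, so reads may have been split between the copies and their values are uncertain.

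INTS11 encodes the endonuclease of the Integrator complex, which ends transcription of short noncoding RNA. Its strongest antisense region (chr1:1312457-1316562, plus strand, 4106 bases) lay in no plus-strand transcript, 3414 bases past the end of PUSL1, a gene on that strand. Its summit was 50 bases downstream of the nearest annotated INTS11 start (chr1:1315141). This start lies inside the gene, as other INTS11 antisense regions had their nearest starts further upstream, at 1317450, 1319346, 1320905 and 1324687. The fold over local background there was 7.27 and 9.61 in HepG2 WT, 19.3 and 31.0 in K562 WT, 32.0 and 30.8 in K562 Control, 49.6 and 58.7 in K562 KD, 17.1, 10.3 and 20.6 in NB4 Control and 24.4, 14.6 and 27.0 in NB4 KD. The K562 KD libraries were the highest and the HepG2 libraries the lowest, while the NB4 groups overlapped. Fold scales with the depth and background of a list, and the percentiles were 97.4 to 99.9 in every library.

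In HepG2 the strongest line-restricted regions were at IL7 (mean percentile 99.8, a lymphoid growth factor gene), PDGFRB (98.9, a receptor tyrosine kinase gene), INPP1 (98.8, an inositol phosphatase gene) and MAGI1 (98.7, a junction scaffold gene). Those at PDGFRB (chr5:150137690-150138192) and MAGI1 (chr3:66038319-66038873) lay outside plus-strand transcripts. The fold at PDGFRB was 5.67 and 8.41 in HepG2 WT 1 and 2, with no peak in the other 12 libraries. Of 17 hepatocyte markers (12.5% of all protein-coding genes had an antisense region) 3 had one: APOB (mean percentile 82.4), ONECUT1 (2 regions, 62.4 and 27.0) and FOXA1 (16.5), in both HepG2 libraries and no others. APOB encodes the main protein of low-density lipoprotein and ONECUT1 and FOXA1 hepatic transcription factors.

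In K562 the strongest line-restricted region lay in exon 1 of TSIX, opposite the start of XIST (chrX:73826681-73827503, plus strand, mean percentile 99.9). It was followed by ENSG00000251199 (99.1), in the exon of PES1P1, a processed pseudogene of PES1 whose reads may be shared with that gene, and by RNF217-AS1 (97.8), in intron 1 of RNF217. At GATA2, a haematopoietic transcription factor gene, 2 regions in an intron of GATA2-AS1 were in all 6 K562 and both HepG2 libraries (mean percentiles 72.1 and 63.2) and in no NB4 library. At GATA1, the erythroid master regulator gene, a region 930 bases upstream was in both K562 WT libraries (percentiles 92.7 and 89.3), in no K562 Control or KD library, and in 5 NB4 libraries at 22.1 to 72.6. Of 15 erythroid and megakaryocyte markers, these 2 had antisense regions.

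In NB4 the leading line-restricted regions were at RPS6KB2 (97.5, a ribosomal protein S6 kinase gene), ENSG00000232197 (97.3), ENSG00000222012 (96.9) and SH3RF3-AS1 (96.7). Each lay in an annotated transcript of its strand: intron 1 of RPS6KB2-AS1, intron 1 of ENSG00000287407, intron 15 of PTPRN2 and exon 1 of SH3RF3. At RPS6KB2 the fold was 8.78, 10.5 and 6.79 in Control and 8.46, 7.50 and 11.5 in KD, and these overlap. Among 16 myeloid markers GFI1, MYB and RARA had an antisense region. That of GFI1, a myeloid repressor gene, was weak (mean percentile 10.3 in 3 NB4 libraries), and those of MYB and RARA were each in 1 K562 WT library.

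The labels of the lines were borne out by peaks on the strand of their marker genes, antisense or not. Of the 17 hepatocyte markers, 10 and 13 had a peak in the HepG2 libraries, 0 to 4 in K562 and 0 in NB4. Of the 15 erythroid and megakaryocyte markers, 14 had one in each K562 library, 6 to 8 in NB4 and 3 to 5 in HepG2. For the 16 myeloid markers the numbers were 12 to 14 in NB4, 4 to 7 in K562 and 4 in HepG2.

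The study followed TGFB1, SOCS1 and H2AC8. Neither TGFB1 nor SOCS1 had an antisense promoter region. At H2AC8, a replication-dependent histone gene, a region on the minus strand (chr6:26215526-26216269) had its summit 937 bases upstream and 216 bases past the end of the neighbouring histone gene H2BC8. Its fold was 7.91 and 6.12 in K562 WT, 9.66 and 7.56 in K562 Control and 9.82 and 8.60 in K562 KD, and Control and KD overlapped. There was no peak in the 8 other libraries.

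The 5 gene lists were described by their antisense regions, against 2488 of 19962 protein-coding genes (12.5%) with an antisense region and 277 (1.39%) with one in all 14 libraries. The set of all genes includes any that are silent in these lines, so a higher share in a list does not show enrichment. Of 17 genes of the m6A machinery, 5 had one: WTAP, CBLL1, RBM15, VIRMA and YTHDF3. WTAP, a scaffold of the methyltransferase complex, had a region in intron 3 of a non-canonical transcript of SOD2 in all 14 libraries (percentiles 90.8 to 97.8, chr6:159726142-159727242, minus strand). The K562 Control libraries had folds of 27.0 and 32.1 there, K562 KD 29.5 and 31.3, NB4 Control 14.6, 14.8 and 13.5, and NB4 KD 16.3, 12.7 and 17.5, so Control and KD overlapped in both lines. CBLL1, a regulatory subunit, had a region in 10 libraries (mean percentile 49.6), and those of RBM15, VIRMA and YTHDF3 were weak and in 1 to 3 K562 libraries.

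Of 21 genes for decay or early termination of promoter antisense RNA, 8 had an antisense region, 13 regions in all. Besides INTS11 these were NCBP2, a cap-binding subunit (in exon 1 of NCBP2AS2, all 14 libraries, mean percentile 94.8), EXOSC3, an exosome core subunit (in exon 1 of DCAF10, 11 libraries, 56.6), SRRT and ZC3H18, which link the cap to decay (each in 13 libraries, 51.1 and 46.5), ZFC3H1 of the exosome-targeting connection (12 libraries, 33.2), and PCF11 and XRN2, which act in termination (2 libraries each). The EXOSC3 region had a percentile of 70.3 to 84.3 in the 6 K562 libraries and of 10.6 to 17.5 in the 3 NB4 libraries that held it. At NCBP2 the percentile was 91.9 to 94.9 in NB4 Control and 87.3 to 91.1 in NB4 KD, while K562 Control and KD overlapped. The difference in NB4 was not tested.

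The other lists had fewer. Of 11 genes of the Polycomb repressive complex 2 (PRC2), AEBP2, JARID2 and PHF19 had an antisense region. That at AEBP2, an accessory subunit, was in all 6 NB4 libraries (percentiles 56.5 to 86.5) and in 3 K562 libraries (19.8 to 48.6), and the other regions were each in 1 library. Of 16 genes of TGF-beta signalling, TGIF1, a SMAD co-repressor gene (mean percentile 37.3 in 6 K562 libraries), and TGFB3, a ligand gene, had one. The region at TGFB3 was in the 3 NB4 Control libraries and in no NB4 KD library, at percentiles of 1.63, 2.04 and 3.58, among the weakest peaks of their lists. Of 15 immediate early genes, IER2 and JUNB had one, and a region at IER2 was in 13 libraries (mean percentile 32.2).

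Next, the 6 groups were compared by the share of peaks that were antisense promoter peaks. The share was 5.27% and 5.53% in HepG2 WT, 5.81% and 5.83% in K562 WT, 4.84% and 5.20% in K562 Control, 4.96% and 4.57% in K562 KD, 5.22%, 5.33% and 4.76% in NB4 Control and 4.38%, 4.23% and 4.33% in NB4 KD. Behind these stood 1193 to 2558 antisense peaks per library, in lists of 22635 to 44043 peaks called at estimated depths of 10.8 to 32.9 M reads. Both K562 WT libraries lay above, and all 3 NB4 KD libraries below, every other library, and the ranges of HepG2 WT, K562 Control, K562 KD and NB4 Control overlapped in part.

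The WT lines differed little. K562 WT exceeded HepG2 WT by 0.418 points (5.82% ± 0.0177 against 5.40% ± 0.186, SD, n = 2 each, exact permutation test, p = 0.333, the smallest that 2 against 2 allows). The K562 WT lists were longer, with 44043 and 43357 peaks against 22635 and 27358, and at equal list sizes the difference was 0.124 points (p = 0.667, exact permutation test). Of 3223 antisense regions of the 4 libraries, 1282 (39.8%) were in both K562 WT and neither HepG2 WT library, against 38.0% of all 56898 regions. The reverse held for 307 (9.53%, against 10.0% of all regions). Both shares were near those of all regions. Among unannotated antisense regions they were 43.0% and 12.8%, and among exonic ones 36.3% and 7.49%.

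NB4 Control and K562 Control had similar shares (5.10% ± 0.301, n = 3, and 5.02% ± 0.256, n = 2, exact permutation test, p = 0.700, smallest possible 0.1). Weighting peaks to a common GC content turned the difference from 0.0816 to -1.14 points, and leaving out K562 Control 1 or NB4 Control 2 gave -0.0996 and -0.0322. Within promoter peaks, antisense ones made up 22.6% ± 0.673 in NB4 Control and 25.6% ± 0.342 in K562 Control, and the groups did not overlap (p = 0.1, exact permutation test). Of 3070 antisense regions, 357 (11.6%, against 10.1% of all 62916 regions) were in every NB4 Control and no K562 Control library, led by ENSG00000289540 in exon 1 of PTGER4, a prostaglandin receptor gene. The reverse held for 575 (18.7%, against 20.5% of all regions).

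The control hairpin libraries of K562 held fewer antisense peaks than K562 WT. The share was 5.02% ± 0.256 against 5.82% ± 0.0177 (difference -0.797 points, p = 0.333, exact permutation test, the smallest possible, and -0.492 points with GC weighting), and their percentile was lower too (43.5 ± 0.238 against 47.4 ± 0.354). Estimated reads were 14.8 and 19.5 M in Control and 25.6 and 24.9 M in WT, and the part of depth was not tested beyond a depth-matched share, whose difference was -0.813 points. Of 3117 antisense regions, 621 (19.9%, against 15% of all 56449 regions) were in both WT and no Control library, GATA1 and PRPH, a neuronal intermediate filament gene, among them. The reverse held for 145 (4.65%, against 5.27% of all regions).

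**Figure D5:**
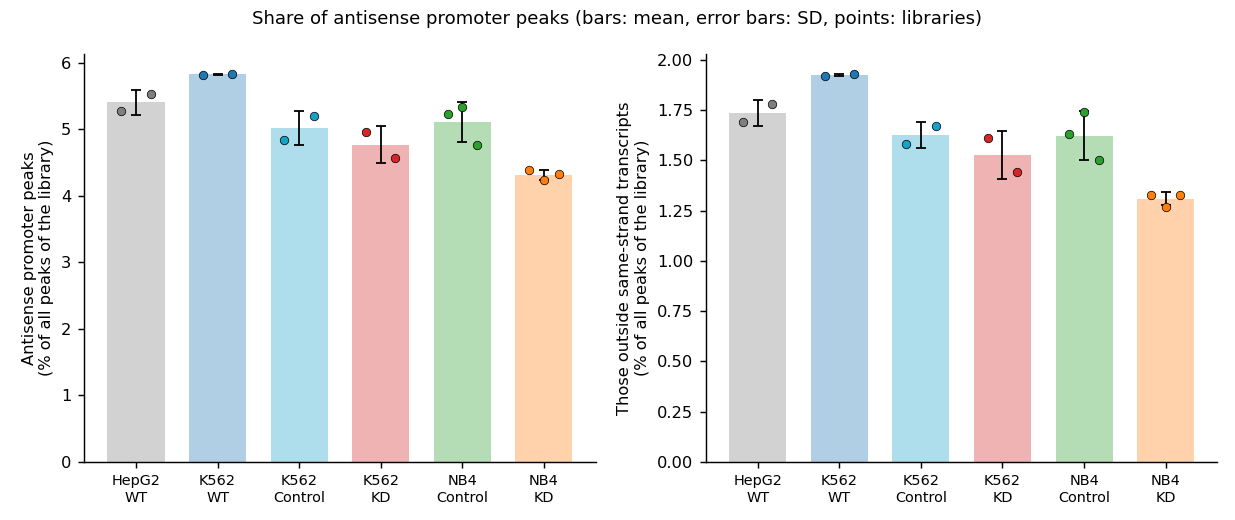
Antisense promoter peaks as a percent of all peaks of the library (left), and those outside same-strand transcripts (right), for the 6 groups; bars are means, error bars SD and points libraries. On the left the 3 NB4 KD libraries lie between 4.23% and 4.38%, below the 3 NB4 Control libraries at 4.76% to 5.33%, while K562 Control and KD overlap.

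RBFOX2 KD was compared with Control to ask whether m6A on promoter antisense RNA follows RBFOX2. In NB4, antisense peaks made up 4.31% ± 0.0788 of peaks in KD and 5.10% ± 0.301 in Control (SD, n = 3 each, difference -0.791 points, p = 0.1, exact permutation test, the smallest 3 against 3 allow). In K562 the values were 4.76% ± 0.279 and 5.02% ± 0.256 (n = 2 each, difference -0.259 points, exact permutation test, p = 0.667). Over both lines the difference was -0.525 points and 5 of 5 KD libraries lay below their Control mean (p = 0.0333, exact permutation test within lines, smallest possible 0.0167). It did not pass 0.05 after adjustment over 6 measures (adjusted p = 0.200, exact permutation test), and a difference between the lines was not shown (p = 0.250).

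The fall in share was smaller with GC weighting, and its cause was not tested. Weighting all peaks to a common GC content left -0.0991 points (p = 0.367, exact permutation test). In NB4, 32.1%, 31.6% and 26.9% of all peaks in Control had a summit window above 60% GC, against 22.8%, 22.4% and 23.6% in KD, and the GC content of the members fell as well, from medians of 60.3% to 60.9% to 58.3% to 59.6%. The number of antisense peaks itself was 1540, 1701 and 1591 in NB4 Control and 1741, 1591 and 1588 in NB4 KD, and these overlap. The lists were longer in NB4 KD, with 36697 to 39707 peaks against 29511 to 33400. Peaks without a peak on the other strand, a choice made after seeing the data, gave -0.426 points and unannotated peaks alone -0.216 points (both p = 0.0333, exact permutation test). Both are smaller classes, so their points are not on the scale of the main share. Unannotated peaks made up a mean of 1.62% of all peaks in NB4 Control and 1.31% in NB4 KD. In K562 the means were 1.62% in Control and 1.52% in KD. Without K562 Control 2 the p was 0.0667, and likewise without NB4 KD 1, 2 or 3.

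Neither the share nor any of the 5 other measures passed a test on KD over both lines after adjustment. As a share of promoter peaks they differed by -0.366 points (p = 0.400), in log2 number by -0.0369 (p = 0.650), in median percentile by -0.291 points (p = 0.667) and in GGACU excess by -0.119 points (p = 0.950), all by exact permutation tests with adjusted p = 0.950. Of the K562 WT antisense regions, K562 Control held 65% ± 1.67, K562 KD 63.6% ± 5.58, NB4 Control 44.4% ± 1.43 and NB4 KD 45.4% ± 1.53 (both lines -0.228 points, p = 0.950, exact permutation test). In unannotated peaks alone, the median percentile was lower in KD by a mean of 2.50 points (-2.50, p = 0.0167, exact permutation test, unadjusted), and with lists cut to equal sizes the log2 number differed by -0.160 (p = 0.0333) and recovery by -2.65 points (p = 0.05), also unadjusted.

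Few antisense regions changed in every library of a group. In K562, 54 of 2400 antisense regions (2.25%) had a peak in both Control and no KD library, against 1.74% of all 47567 regions and 2.24% of sense promoter regions. The reverse held for 31 (1.29%, against 1.76% of all regions and 0.921% of sense promoter regions). In NB4, 28 of 2386 (1.17%) were lost, against 0.610% of all 52663 regions, and 31 (1.30%) were gained, against 3.68%. Of sense promoter regions in NB4, 0.592% were lost and 2.07% gained. With a library left out the rule is looser, so higher counts follow from the rule itself. They come without shares of all regions and do not measure stability. Leaving out K562 Control 1, K562 Control 2 or K562 KD 1 gave 364, 152 and 184 lost in K562, and leaving out any 1 of the 4 gave 91 to 146 gained. In NB4, 61, 52, 57 and 43 were lost without Control 1, 2 or 3 or KD 1, and 53, 68, 78, 54 and 56 were gained without KD 1, 2 or 3 or Control 2 or 3.

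The lost and gained regions were mostly weak. Their median mean percentile was 17.9 (lost) and 18.9 (gained) in K562, and 32.6 and 29.4 in NB4. By annotation, 15 of 1028 exonic antisense regions (1.46%), 18 of 540 intronic ones (3.33%) and 21 of 832 unannotated ones (2.52%) were lost in K562. In NB4 these were 12 of 1023 (1.17%), 2 of 566 (0.353%) and 14 of 797 (1.76%). Of all regions, 1.74% were lost in K562 and 0.610% in NB4.

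The strongest of those lost in K562 were at SAFB (mean percentile 64.5 ± 29.9, n = 2), a nuclear matrix RNA-binding protein gene, in exon 1 of its divergent neighbour SAFB2, at ENSG00000247049 (62.5), in exon 1 of a non-canonical transcript of TRIM41, and at ZNF614 (42.9), a zinc finger gene whose antisense summit lay in no transcript. Those gained in K562 were led by ENSG00000289982 (62.3), in exon 1 of UGGT1, GINS3 (44.5), a DNA replication gene, and PPP1R16A (38.7). In NB4 the strongest lost regions were at FAM174C (58.2 ± 1.70, n = 3), SLC43A1 (53.9), an amino acid transporter gene, and BMF-AS1 (45.1), in exon 5 of BMF, a pro-apoptotic gene. The strongest gained were at IRS1 (54.7 ± 20.4, n = 3), the insulin receptor substrate gene, ENSG00000259347 (47.1), in exon 1 of SMAD3, a TGF-beta effector gene, and CSPP1 (40.8). These genes were named by their strength alone, and the presence that puts them on the list is not tested a second time.

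With 54 of 2400 antisense regions lost in K562 and 28 of 2386 in NB4, and 31 gained in each, any overlap can only be small. A share of all regions changed in both lines is not given here, so the overlap says nothing particular to antisense regions. No antisense region was lost in both lines. At 2 genes an antisense region was gained in both, NDUFB2, a respiratory chain gene, where the regions of the lines lay apart, and GPT, an alanine aminotransferase gene, where they overlapped.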

How the data were processed

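Peaks were taken from 14 lists, 1 per IP library. Per the labels and the study's methods, Trimmomatic 0.39 trimmed the reads, HISAT2 2.1.0 aligned them to hg38, SAMtools 1.9 handled the alignments, and peaks were called per library and strand with MACS2 (q under 0.01). Whether input served as background is not given in the sources used here. The deposited fold at the summit (a ratio to local background) and the deposited -log10 p-value and -log10 q-value are the authors' MACS2 output. They were used to rank peaks and to estimate reads from the background rate.

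Members were found with GENCODE release 44. Regions are peaks merged by strand with at least 1 shared base. Groups were compared with two-sided exact permutation tests, libraries as units, and Benjamini-Hochberg adjustment. In Python 3.11.15 with numpy 2.4.6, scipy 1.17.1 and pysam 0.24.0, all 13 checks on simulated data passed. Pairing by replicate number was not seen (correlations of same-numbered deviations -0.0583 to -0.00498), though such correlations cannot show that libraries were not paired. Members, gene lists and tests were chosen with earlier results of these data known. Named regions were the strongest by mean percentile in all 14 libraries (6), in 1 line only (4 each) and among those lost or gained (3 each), those in both lines, TGFB1, SOCS1 and H2AC8, and members of the lists. 1 of the regions named by this rule is not reported here. Sequences of untranslated exons and of some chromosomes are not printed. Input libraries are not analysed here.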

Additional observations from a re-analysis of the deposited data

How the results depend on the processing

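The fall in antisense share on KD (-0.525 points) kept its direction in every alternative run and lost p = 0.05 with GC weighting (-0.0991, p = 0.367, exact permutation test). With a replicate block it was -0.525 (p = 0.125, exact permutation test), and whether replicate numbers pair the libraries is not known. Leaving out single libraries gave -0.623 to -0.426, and p rose to 0.0667 without K562 Control 2 and without NB4 KD 1, 2 or 3. The cause was not tested for these or for the changes below.

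With starts of protein-coding transcripts only, KD minus Control was -0.0476 points for the antisense percent of promoter peaks in K562, -0.0299 for log2 number in NB4, -0.461 for recovery in NB4, 0.558 for median percentile and 0.00995 for GGACU excess, each against the main direction. With unannotated summits only, -0.0419, -0.0367 (the first 2 of these), 0.419 (GGACU excess) and -0.680 (percentile, K562) were reversed, and the percentile over both lines was -2.50. With a window of 500 bases, log2 number in NB4 was -0.00370, percentile in K562 -1.15 and GGACU excess 0.0934. With equal list sizes, log2 number was -0.160 (p = 0.0333, exact permutation test) and -0.257 in NB4, recovery -2.65 (p = 0.05, exact permutation test) and -4.10 in NB4, and percentile 0.0478. GC weighting turned NB4 Control minus K562 Control to -1.14 points and left K562 Control minus K562 WT at -0.492.

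Leaving out single libraries moved the antisense percent of promoter peaks in K562 between -0.511 and 0.691, log2 number between -0.0960 and 0.0221 (K562 -0.218 to 0.0183, NB4 -0.0178 to 0.0659), recovery between -2.20 and 1.74 (K562 -5.36 to 2.53), percentile between -0.545 and 0.0960, GGACU excess between -0.995 and 0.757 (K562 -0.401 to 3.10) and NB4 Control minus K562 Control between -0.0996 and 0.263.

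The counts of regions lost or gained below come from changed sets of regions, or from a looser rule where a library is left out. Only the unannotated ones have a share here: 2.52% (lost) and 1.92% (gained) of 832 regions in K562, and 1.76% and 1.51% of 797 in NB4. Of all regions, 1.74% were lost and 1.76% gained in K562, and 0.610% and 3.68% in NB4. The other counts have no such share and do not show how antisense regions differ from the rest. Regions lost in K562 numbered 24 at protein-coding starts, 21 when unannotated and 77 to 364 without single libraries. Those gained in K562 numbered 16, 16 and 55 (summit windows), and 91 to 146. In NB4, 17, 14 and 60 (equal lists) were lost, and 37 to 61 without single libraries, while 19 (window of 500 bases), 10, 12 and 16 (equal lists) were gained, and 45 to 78. Presence in every library of a group does not use replicate numbers, so no block was run for these counts. Depth, 10.8 to 32.9 M reads, and the 3 libraries whose pileups are not whole numbers limit comparison of folds between lists.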
